A study of Mus musculus with 8 samples.

Results

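The 10 genes described here encode elastin, fibrillin-1 and proteins that assemble, line or bind elastic fibres and microfibrils. They are Eln, Fbn1, Fbln1, Fbln2, Fbln5, Efemp1, Efemp2, Emilin1, Mfap4 and Mfap5, taken by name from the 31053 genes of the count table, and all 10 were found. They were measured by bulk RNA-seq in brown adipose tissue (BAT), the heat-producing fat depot of rodents, from 4 wild-type (WT) and 4 db/db male mice at 8 weeks of age. The db/db mice carry a mutation of the leptin receptor gene in all tissues, overeat and become obese, and neither genotype received a drug. The study's methods state that tissues were harvested after a fast. The labels give the strain C57BL6/J for all 8 samples. The study's methods name the db/db mice B6.BKS(D)-Leprdb/J, a line on the C57BL/6 background, while its list of resources gives the stock number of another db/db line, so whether the genotypes share a background is not settled by the sources used here. The comparison asks how the transcriptome of BAT differs in this model of obesity and type 2 diabetes.

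Elastic fibres give tissues their recoil. Tropoelastin monomers are deposited and crosslinked by lysyl oxidases on a scaffold of fibrillin microfibrils, and fibulins, emilins and microfibril-associated proteins guide the deposition or bind the finished fibre. Microfibrils also hold the latent complexes of TGF-β through some of the latent TGF-β binding proteins. In adipose tissue such genes are known mainly from fibroblasts and progenitors of the stroma and from the walls of blood vessels. In bulk tissue, more cells of a type and more RNA per cell cannot be told apart.

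The WT libraries held 2374079 to 2615009 counts and the db/db libraries 2382722 to 3240074, and 3 counts, taken as the detection floor, stand for 0.902 to 1.33 CPM (counts scaled to the library size). The label of the cell type, stromal vascular fraction, goes against the data: the adipocyte list (Adipoq, Plin1, Lipe, Fabp4 and Lpl) summed to at least 12306.7 CPM in every library, and the profile is described here as that of whole BAT. The mutated gene, Lepr, had 0 counts in every library, so it did not check the genotype. The library db/db 1 stands apart, with the highest skeletal muscle transcripts of all 8 and the highest value within db/db for 7 of the 10 members, and the counts of genes that rose or fell are also given without it.

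The promoters of genes that rose together are shown for 2 of them, Fbln5 and Efemp1, as the 250 bases before the RefSeq start, the first of 2 in Fbln5, on GRCm38.p6, read 5′ to 3′ on the strand of the gene. The window of Fbln5 is chr12:101819120-101819369 on the minus strand, and that of Efemp1 is chr11:28852955-28853204 on the plus strand. Capitals mark, on either strand, the GC box GGGCGG, which Sp-family factors bind, and the AP-1-like pattern TGANTCA, where N is any base. Fos and Jun dimers bind the form with C or G at N.
Fbln5: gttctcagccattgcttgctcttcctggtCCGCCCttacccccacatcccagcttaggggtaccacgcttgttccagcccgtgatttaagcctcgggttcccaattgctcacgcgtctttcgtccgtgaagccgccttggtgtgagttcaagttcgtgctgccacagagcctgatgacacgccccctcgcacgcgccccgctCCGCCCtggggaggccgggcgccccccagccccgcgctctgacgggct
Efemp1: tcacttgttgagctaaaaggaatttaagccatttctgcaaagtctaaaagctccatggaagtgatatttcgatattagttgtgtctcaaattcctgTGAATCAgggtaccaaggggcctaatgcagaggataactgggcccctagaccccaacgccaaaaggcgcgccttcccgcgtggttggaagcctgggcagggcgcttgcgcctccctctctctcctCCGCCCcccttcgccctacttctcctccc
Fbln5 holds 2 GC boxes in this window. Efemp1 holds 1 GC box and 1 match to TGANTCA, with A at N, which is not the consensus AP-1 form. Of the 7 members with a window, 5 held a GC box and 1 a match to TGANTCA, against 32.9% and 6.87% of 27025 genes. None held the TATA box TATAAA, found in 13% of genes. For genes with more than 1 RefSeq start these shares use the first window. In a second window Fbln1 also held 1 GC box, which makes 6 of 7 members with a GC box in any window, while the second window of Fbln5 held 0 and had 49.6% G and C. The windows shown for Fbln5 and Efemp1 hold 65.2% and 53.6% G and C, against a median of 52% over all genes. The letters describe the sequence and do not show that a factor binds there. Eln, Mfap4 and Mfap5 were not searched.

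Most of these genes were higher in db/db BAT. The summed level of the 10 members was 52.2, 45.6, 42.5 and 56.9 CPM in the 4 WT libraries and 341.1, 192.5, 156.9 and 165.2 CPM in the 4 db/db libraries. When every gene with at least 1 count was tested with the quasi-likelihood test of edgeR, 7 of the 10 members rose and none fell at an adjusted p of 0.05. Among all 16410 genes of that test 11.3% rose. The members and the gene lists below were chosen with earlier results of these data known. The shares of all genes beside their counts are therefore a description and not a test. The median log2 fold change was 1.69 over the 10 members, also with Mfap4 set to its bound given below, and 0.08 over all genes. The 4 db/db values lay above the 4 WT values in 7 of the 10 members, against 11.5% of the same genes. Without db/db 1, 6 of the 10 rose in this test and none fell, against 9.59% of 15997 genes that rose, and Mfap4 was the one lost (edgeR adjusted p 0.132). The median over the members was then 1.40, with Mfap4 at its bound, against 0.06 over all genes. With all libraries the 7 genes were Eln, Fbn1, Fbln2, Fbln5, Efemp1, Mfap4 and Mfap5. Those that did not pass were Fbln1, Efemp2 and Emilin1 (edgeR adjusted p 0.114, 0.650 and 0.861), all with at most 17 counts in any library.

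A filter on low counts left 9264 genes and 6 members, and this fit gives the fold changes that follow. All 6 rose, against 15.8% of the genes tested, while 11.9% of them fell. The filter asks for about 3.97 CPM in at least 4 libraries. Fbln2 reached this level in 1 WT library and Eln, Efemp1 and Mfap5 in 3, so these passed it partly through the db/db libraries, and the count of 6 is no measure of how common a rise is among the members. None of the 6 overlapped between the genotypes, against 15.3% of the genes tested with db/db above. Levels are counts per gene that are not scaled to length, and they are compared between libraries and not between genes.

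**Figure D1:**
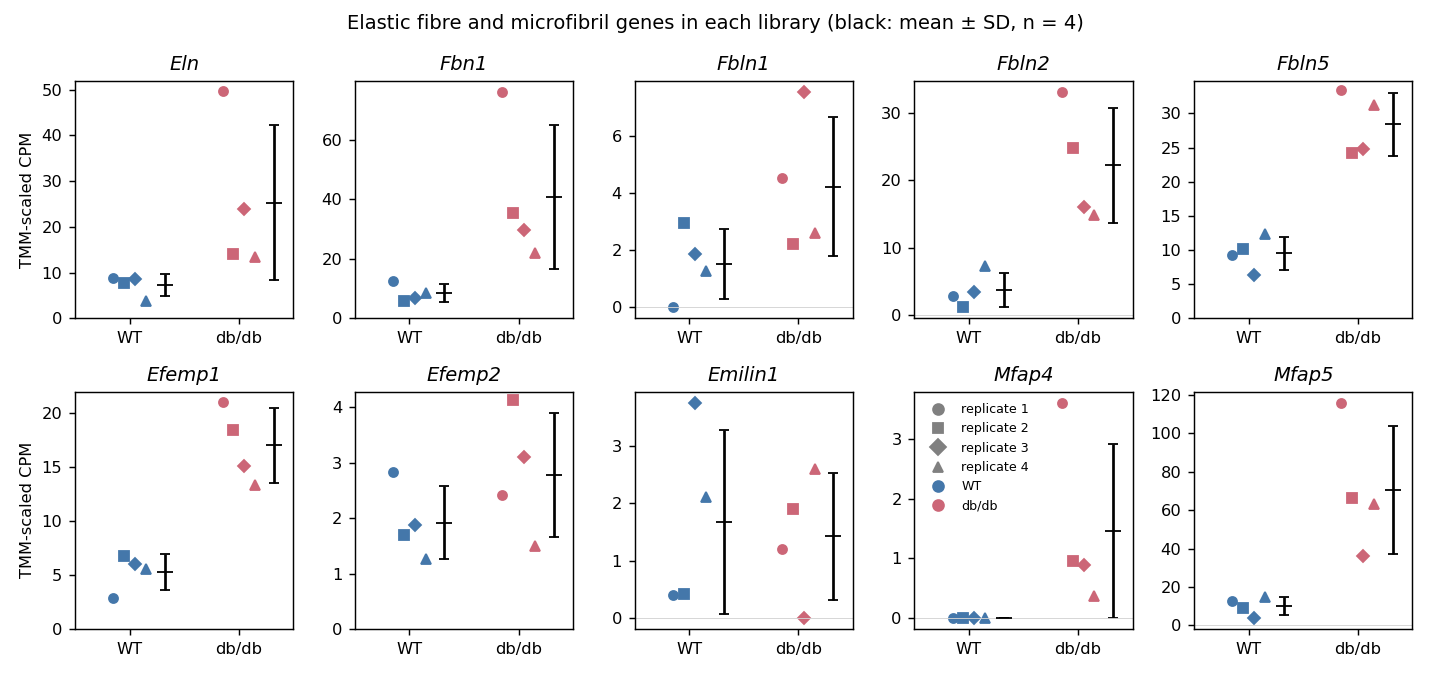
TMM-scaled CPM (y axis, linear) of each of the 10 members in the 4 WT (blue) and 4 db/db (red) libraries, with the replicate number as the symbol and the mean ± SD (n = 4) in black. The db/db points lie above every WT point in Eln, Fbn1, Fbln2, Fbln5, Efemp1, Mfap4 and Mfap5, and the genotypes overlap in Fbln1, Efemp2 and Emilin1.

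Elastin is the core of the fibre. Eln (ENSMUSG00000029675, mm10 chromosome 5, 134702593 to 134747323, minus strand) had 8.90, 7.60, 8.64 and 3.82 CPM in WT 1 to 4 and 49.6, 14.0, 23.9 and 13.4 CPM in db/db 1 to 4. The db/db libraries were all higher, but db/db 2 and db/db 4 lay close to the upper WT values and db/db 1 far above the rest. The means were 7.24 ± 2.35 and 25.2 ± 17.0 CPM (SD, n = 4 each), with a log2 fold change of 1.80 ± 0.40 (SE, edgeR, adjusted p 0.00234). Without db/db 1 the log2 fold change was 1.20 (edgeR adjusted p 0.00976). An antisense gene, Gm30003, overlaps exons of Eln, and Gm9913 those of Fbn1, each with at most 1 count per library.

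Fibrillin-1 is the main structural protein of microfibrils in adult tissue. Fbn1 (ENSMUSG00000027204, chromosome 2, 125300594 to 125507993, minus strand) had 12.5, 5.91, 6.76 and 8.49 CPM in WT and 76.1, 35.3, 29.7 and 21.9 CPM in db/db. Its db/db libraries spread widely, again with db/db 1 at the top, and the lowest of them still exceeded the highest WT library. The log2 fold change was 2.28 ± 0.35 (SE, edgeR, adjusted p 0.000112), and 1.77 without db/db 1 (edgeR adjusted p 8.58e-05).

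Mfap5 (ENSMUSG00000030116, chromosome 6, 122505845 to 122529290, plus strand) encodes a small glycoprotein of microfibrils, also called MAGP2, that binds fibrillins. It had the largest fold among the 6 tested members, from 12.5, 8.86, 3.76 and 14.9 CPM in WT to 116.1, 66.5, 35.9 and 63.2 CPM in db/db. The db/db mean of 70.4 ± 33.4 CPM (SD, n = 4) was 7.04-fold that of WT, with a log2 fold change of 2.83 ± 0.35 (SE, edgeR, adjusted p 1.26e-05). The lowest db/db library, db/db 3, lay well above the highest WT library, WT 4. Without db/db 1 the log2 fold change was 2.47.

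Mfap4 (ENSMUSG00000042436, chromosome 11, 61485431 to 61488900, plus strand), a fibrinogen-related protein that binds tropoelastin and fibrillin, had 0 counts in every WT library. The db/db libraries held 12, 3, 2 and 1 counts, so that 3 of the 4 stood at or below the floor. Over the summed counts of each genotype it was at least 5.18-fold higher in db/db, with the floor of 3 counts taken over the 4 WT libraries together. Of the 18 counts 12 are in db/db 1, without which the bound is 2.44-fold. Its log2 CPM differed with an exact two-sided permutation p of 0.0286, the smallest that 4 against 4 libraries allow (n = 4 each). Exons of Mapk7 overlap the gene on the other strand, with 5, 8, 2 and 15 counts in WT and 21, 32, 20 and 17 in db/db. Mapk7 thus moved in the same direction, and since the use of strand in counting is not stated, the few counts of Mfap4, and its place among the 7 members that rose, are uncertain.

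Of the fibulins with a role in fibre assembly, Fbln5 and Efemp1 rose and Efemp2 did not pass. Fibulin-5, encoded by Fbln5 (ENSMUSG00000021186, chromosome 12, 101746565 to 101819055, minus strand), tethers tropoelastin to microfibrils and to cell-surface integrins. It had 9.31, 10.1, 6.39 and 12.3 CPM in WT and 33.4, 24.2, 24.8 and 31.2 CPM in db/db, and in this gene db/db 1 was close to the other db/db libraries. The log2 fold change was 1.58 ± 0.24 (SE, edgeR, adjusted p 7.82e-05), the smallest SE of the tested members, and 1.48 without db/db 1.

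Fibulin-3 and fibulin-4 are close relatives of fibulin-5, and of these fibulin-4 is needed for elastin crosslinking. Efemp1 (fibulin-3; ENSMUSG00000020467, chromosome 11, 28853204 to 28926743, plus strand) had 2.83, 6.75, 6.01 and 5.52 CPM in WT and 21.1, 18.5, 15.1 and 13.4 CPM in db/db. Every db/db library was higher than every WT library, with a log2 fold change of 1.69 ± 0.30 (SE, edgeR, adjusted p 0.000365). Efemp2 (fibulin-4; ENSMUSG00000024909, chromosome 19, 5473954 to 5482517, plus strand) had 2.83, 1.69, 1.88 and 1.27 CPM in WT and 2.41, 4.14, 3.10 and 1.49 CPM in db/db. Its genotypes overlapped, and its log2 CPM was 0.38 higher in db/db (exact two-sided permutation p = 0.286, n = 4 each). Leaving out 1 library moved this from 0.20 without db/db 2 to 0.58 without db/db 4 (exact permutation p = 0.486 and 0.0857). Efemp2 rests on 3 to 13 counts per library and shares exon sequence with Mus81 on the other strand, so the missed threshold does not show an unchanged level. The size of change that could be detected was not tested.

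Fibulin-1 and fibulin-2 are larger fibulins of basement membranes, microfibrils and vessel walls. Fbln2 (ENSMUSG00000064080, chromosome 6, 91212455 to 91272540, plus strand) had 2.83, 1.27, 3.38 and 7.22 CPM in WT and 33.1, 24.8, 16.0 and 14.9 CPM in db/db. Even its lowest db/db library was above WT 4, and the means were 6.04-fold apart (edgeR log2 fold change 2.60 ± 0.39, SE, adjusted p 8.72e-05), with 3 to 17 counts per WT library. Fbln1 (ENSMUSG00000006369, chromosome 15, 85205949 to 85286535, plus strand) had 0, 2.95, 1.88 and 1.27 CPM in WT and 4.51, 2.23, 7.54 and 2.60 CPM in db/db. Its genotypes overlapped through WT 2, and its log2 CPM was 1.22 higher in db/db (exact two-sided permutation p = 0.0857, n = 4 each). That library, at 7 counts, was the only one that overlapped, and without it the difference was 1.52 (exact permutation p = 0.0286, the smallest that 3 against 4 libraries allow). Without WT 1, at 0 counts, the difference was 0.76, and without db/db 3 it was 0.93.

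Emilin1 (ENSMUSG00000029163, chromosome 5, 30913402 to 30921277, plus strand) encodes a glycoprotein at the border of elastin and microfibrils that restrains TGF-β maturation. It had 0.405, 0.422, 3.76 and 2.12 CPM in WT and 1.20, 1.91, 0 and 2.60 CPM in db/db, or 0 to 10 counts. The WT libraries alone spanned nearly the whole range. The difference in log2 CPM was −0.11 (exact two-sided permutation p = 0.914, n = 4 each), and its sign turned when WT 3, WT 4 or db/db 3 was left out, at 0.27, 0.06 and 0.34.

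Because members of a family can move unequally, the log2 ratio of 6 pairs was compared between the genotypes. The ratio of Fbln5 to Efemp1 averaged 0.79 ± 0.61 over the WT and 0.72 ± 0.33 over the db/db libraries (SD, n = 4 each) and so differed by −0.07 (exact permutation p = 0.857, adjusted over the pairs 0.857). The ratio of Efemp1 to Efemp2 was 0.00, 1.62, 1.36 and 1.63 in WT and 2.79, 1.97, 2.04 and 2.66 in db/db. Its db/db values were all above its WT values, with a difference of 1.21 (exact permutation p = 0.0286, n = 4 each, adjusted 0.0857). The ratio of Fbln5 to Efemp2 was 1.14 higher in db/db (exact permutation p = 0.0571, adjusted 0.114). None of the 6 pairs passed after adjustment. Fbln1 to Fbln2 differed by −1.25 (exact permutation p = 0.200, adjusted 0.274), and by −0.63 without WT 2. Eln to Fbn1 differed by −0.51 (exact permutation p = 0.229, adjusted 0.274), with a range of −0.32 without db/db 2 to −0.78 without WT 4. Without db/db 1 none of the 6 pairs changed its sign or passed. The ratio of Mfap4 to Mfap5 has no firm value, because Mfap4 was at 0 in WT: it differed by −1.39 with a prior count of 2 (exact permutation, adjusted p 0.0857) and by −0.08 with 0.5 (adjusted p 0.886). A p that misses the threshold does not show that paired genes move alike.

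Of the 5 lysyl oxidase genes, Lox, Loxl1 and Loxl2 rose. Loxl3 and Loxl4 had too few counts for the filter and did not pass without it (edgeR adjusted p 0.172 and 0.108). Loxl1, a lysyl oxidase that acts on elastin and binds fibulin-5, had 4.45, 2.95, 2.63 and 5.09 CPM in WT and 40.9, 23.2, 27.0 and 26.4 CPM in db/db (edgeR log2 fold change 2.95 ± 0.29, SE, adjusted p 9.42e-07). Lox, which crosslinks collagen and elastin, had 52.2, 31.2, 25.9 and 35.7 CPM in WT and 203.4, 144.1, 118.4 and 132.8 CPM in db/db (edgeR log2 fold change 2.05 ± 0.21, SE, adjusted p 1.59e-06). In both genes all db/db libraries lay above every WT library by a wide margin. Of the 12 genes listed for crosslinking and microfibril assembly, 4 were tested and 3 rose, against 15.8% of all genes tested. Loxl1 reached the filter level in 2 WT libraries and Loxl2 in 1, so that they passed it partly through db/db. Loxl2 had a log2 fold change of 2.15, and Adamts10, a protease-like protein of microfibrils, did not pass (0.58, edgeR adjusted p 0.181). Among the 11 of the 12 with at least 1 count, 5 rose in the test without the filter, against 11.3% of all genes, with a median log2 fold change of 2.10 against 0.08. The other two of these were Adamtsl4 (3.36, edgeR adjusted p 2.30e-05) and Adamtsl5 (2.19, edgeR adjusted p 0.00984), which encode microfibril-binding relatives of the ADAMTS proteases. The exons of Lox, Loxl2 and Loxl3 overlap other annotated genes, which leaves their counts uncertain.

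The relatives and binding partners of the members split. Of 16 listed, 10 were tested, 5 rose and none fell, against 15.8% and 11.9% of all genes tested. Emilin2 reached the filter level in 1 WT library and Fn1 in 3, so that both passed partly through db/db. Without the filter, 7 of 15 rose and none fell, against 11.3% that rose among all genes, with a median of 0.86. Fn1, which encodes the fibronectin on which fibrillin assembles, had the largest rise among those tested with the filter (2.56, SE 0.36, edgeR adjusted p 4.45e-05), and Dcn, the small proteoglycan decorin, the smallest that passed (0.89, SE 0.17, edgeR adjusted p 0.000782). Fbln7, another fibulin, passed only without the filter, with 4, 2, 1 and 1 counts in WT and 19, 29, 9 and 8 in db/db (log2 fold change 2.65, edgeR adjusted p 0.000459, above Fn1 in that fit). Emilin2, a relative of Emilin1, went from 4.05, 0.844, 2.63 and 1.70 CPM in WT to 22.6, 10.2, 4.43 and 12.6 CPM in db/db (edgeR log2 fold change 2.42 ± 0.50, SE, adjusted p 0.00129). The db/db libraries of Emilin2 were all above the WT libraries, the nearest of them narrowly. Bgn, which encodes biglycan, also rose, by a log2 fold change of 1.80.

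The genes of the latent TGF-β binding proteins did not all follow the members. Ltbp3 rose with a log2 fold change of 0.91 ± 0.17 (SE, edgeR, adjusted p 0.000514). Ltbp1 (0.70, edgeR adjusted p 0.274), Ltbp4 (0.18, edgeR adjusted p 0.739) and Ltbp2 (−0.10, edgeR adjusted p 0.759) did not pass and overlapped between the genotypes. Mmrn2, a relative of the emilins made by endothelial cells, did not pass either (0.16, edgeR adjusted p 0.591). Fbn2, the fibrillin of developing tissue, and Mfap2, a microfibril glycoprotein related to Mfap5, did not reach the filter. Without it Mfap2 rose (log2 fold change 1.73, edgeR adjusted p 0.0279, or 0.190 when db/db 1 was left out), with 0 to 2.83 CPM in WT and 0.887 to 7.82 CPM in db/db that overlapped, and Fbn2 did not pass (edgeR adjusted p 0.902, or 0.247 without db/db 1, which held all 5 of its db/db counts). The exons of Fn1, Ltbp2, Ltbp3 and Fbn2 overlap other genes.

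Of the genes of enzymes able to cleave elastin, 5 of 10 listed rose. Mmp12, the macrophage elastase, had 0.405, 0.422, 0 and 0 CPM in WT and 17.7, 11.1, 20.8 and 21.6 CPM in db/db. The WT value rests on 2 counts over 4 libraries, and the ratio of summed levels was 86.0 with an exact 95% counting interval from 23.5 to 714.6. In edgeR its adjusted p was 3.29e-07, and its exons overlap Mmp1b. Of the 10 listed proteases, 6 were tested and 5 rose, against 15.8% of all genes tested. Mmp12 reached the filter level in 0 WT libraries and Ctsk in 1, so that both passed it through db/db. Without the filter 5 of 9 rose, against 11.3% of all genes, with a median log2 fold change of 1.12. Ctss, the cathepsin S of phagocytes, rose with a log2 fold change of 3.19 ± 0.25 (SE, edgeR, adjusted p 6.56e-08) and Ctsl, cathepsin L, had the smallest rise that passed (1.17). Mmp14 did not pass (0.52, edgeR adjusted p 0.124). The neutrophil protease genes did not pass without the filter either, with log2 fold changes of −0.27 in Mmp9, −1.68 in Prtn3 and 0.68 in Elane (edgeR adjusted p 0.748, 0.297 and 0.764). Mmp9 held 31 of its db/db counts in db/db 1 and 13 in the others, and without db/db 1 it was at −1.40 (edgeR adjusted p 0.128). Mmp7 had 0 counts in every library.

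Of the 6 protease inhibitors, 5 were tested and 3 rose, against 15.8% of all genes tested. Among those tested with the filter, Serping1, the inhibitor of complement C1 esterase, had the largest rise (1.80, SE 0.19, edgeR adjusted p 2.35e-06). Timp4, an inhibitor of metalloproteinases, had the smallest that passed (1.05, SE 0.19, edgeR adjusted p 0.000425). Timp3, a matrix-bound inhibitor, did not pass (0.29, edgeR adjusted p 0.0962), nor did Cst3, which encodes cystatin C (0.11, edgeR adjusted p 0.628). Without the filter 4 of 6 inhibitors rose, against 11.3% of all genes, with a median of 1.17. The fourth was Timp1, a secreted inhibitor of metalloproteinases, with 0, 0, 2 and 0 counts in WT and 35, 8, 9 and 12 in db/db. Its ratio of summed levels was 27.6, with an exact 95% counting interval from 7.35 to 233.2 (edgeR adjusted p 1.90e-06). Without db/db 1, the filtered test gave 3 crosslinking genes, 5 relatives, 5 proteases and 3 inhibitors that rose, as with it. These were out of 4, 10, 6 and 5 tested, against 13.8% of all genes tested. The unfiltered test then gave 5, 6, 5 and 4 that rose, out of 11, 15, 9 and 6, against 9.59% of all genes. In it 1 protease gene, Prtn3, fell, at 0 counts in the remaining db/db libraries. The exons of Ctsl, Prtn3, Timp3 and Timp4 overlap other genes. Whether the lists differ from each other was not tested.

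**Figure D2:**
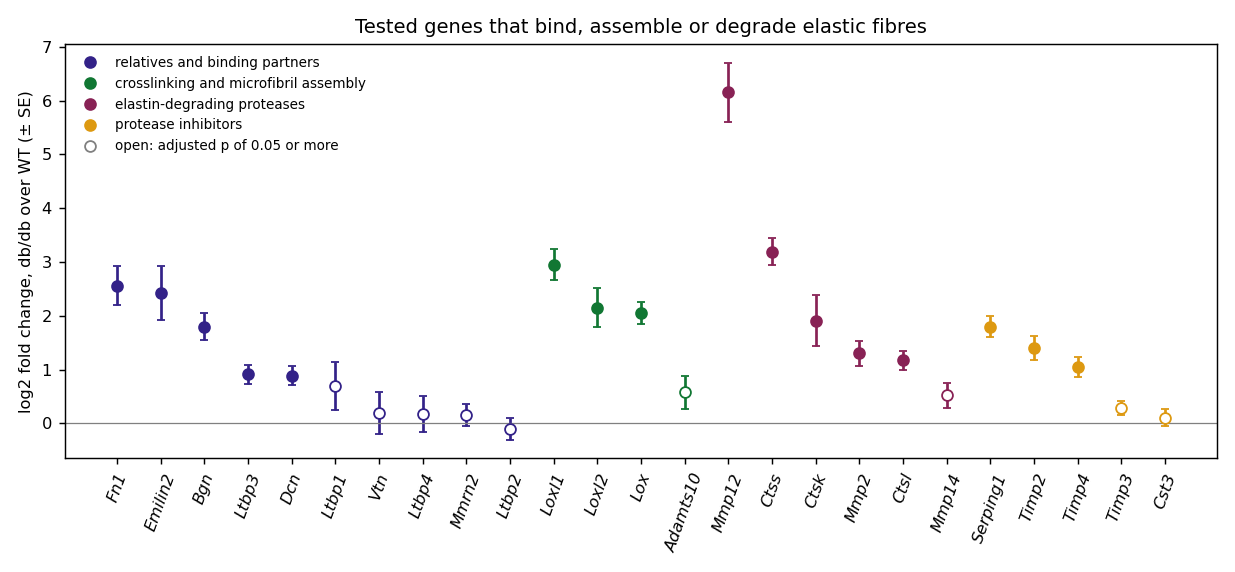
Log2 fold change of db/db over WT ± SE (y axis, edgeR, n = 4 each) for the 25 tested genes of the 4 partner lists (x axis), coloured by list, with open symbols for an adjusted p of 0.05 or more. Loxl1, Lox and Loxl2 lie at 2 or higher, Mmp12 has the highest value, which rests on 2 WT counts, and Ltbp1, Ltbp2 and Ltbp4 are open.

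Markers of several cell types moved with the members. Of the 11 fibroblast and progenitor markers, 10 rose, or 8 without db/db 1, where Pdgfra and Lum did not pass. Over all genes tested 15.8% rose and 11.9% fell, or 13.8% and 10.4% without db/db 1. The summed level of these markers was 437.2 to 511.5 CPM in WT and 881.2 to 2131.4 CPM in db/db. Of the 10 macrophage markers 9 rose, with or without db/db 1, with sums of 155.7 to 209.6 CPM in WT against 743.4 to 1313.4 CPM. All 13 skeletal muscle markers rose, or 11 without db/db 1, where Myh4 and Actn3 did not pass, with sums of 446.4 to 1573.9 CPM in the WT and 2319.8 to 11536.0 CPM in the db/db libraries. Trem2 and Dpp4 reached the filter level in 0 WT libraries and Adgre1 in 1, so that these markers passed the filter through db/db. Without the filter, 10 of 11 fibroblast, 10 of 10 macrophage and 13 of 13 muscle markers rose, against 11.3% of all genes. Of the summed levels of these 3 lists, none overlapped between the genotypes, and in each the highest library was db/db 1, as in the members. The same held for the smooth muscle and pericyte list and the tendon and fascia list, whose sums are given below.

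Of the 7 brown adipocyte markers, 5 were tested and all 5 fell, with or without db/db 1, with sums of 8878.2 to 10548.0 CPM in WT and 3706.6 to 6752.5 CPM in db/db. Vessel markers went in both directions. Of the 10 smooth muscle and pericyte markers, 8 were tested and 4 rose, or 3 without db/db 1, with sums of 253.3 to 294.2 CPM in WT and 401.0 to 650.7 CPM in db/db. Among them Acta2, a contractile actin also made by myofibroblasts, rose (2.21, SE 0.27, edgeR adjusted p 1.32e-05), whereas Myh11, the smooth muscle myosin, did not pass (0.23, SE 0.43, edgeR adjusted p 0.737). Of the 7 endothelial markers, 6 were tested and 3 fell, with or without db/db 1, with sums of 270.4 to 324.1 CPM in WT and 202.7 to 237.7 CPM in db/db. Tendon and fascia markers were near 0 in WT, at 0 to 1.69 CPM in sum, and at 7.44 to 25.3 CPM in db/db, with Mkx and Chad at 0 in every library. With the filter 0 of the 7 were tested. Without it 3 of 5 rose, against 11.3% of all genes, with a median log2 fold change of 3.12. When db/db 1 was also left out, 2 of 5 rose, against 9.59% of all genes. The 1 tested of 6 mesothelial markers fell, with or without db/db 1, and Upk3b, Upk1b and Wt1 were at 0 throughout. The part of these cell types in the rise of the members was not tested, and the values that follow do not test it.

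**Figure D3:**
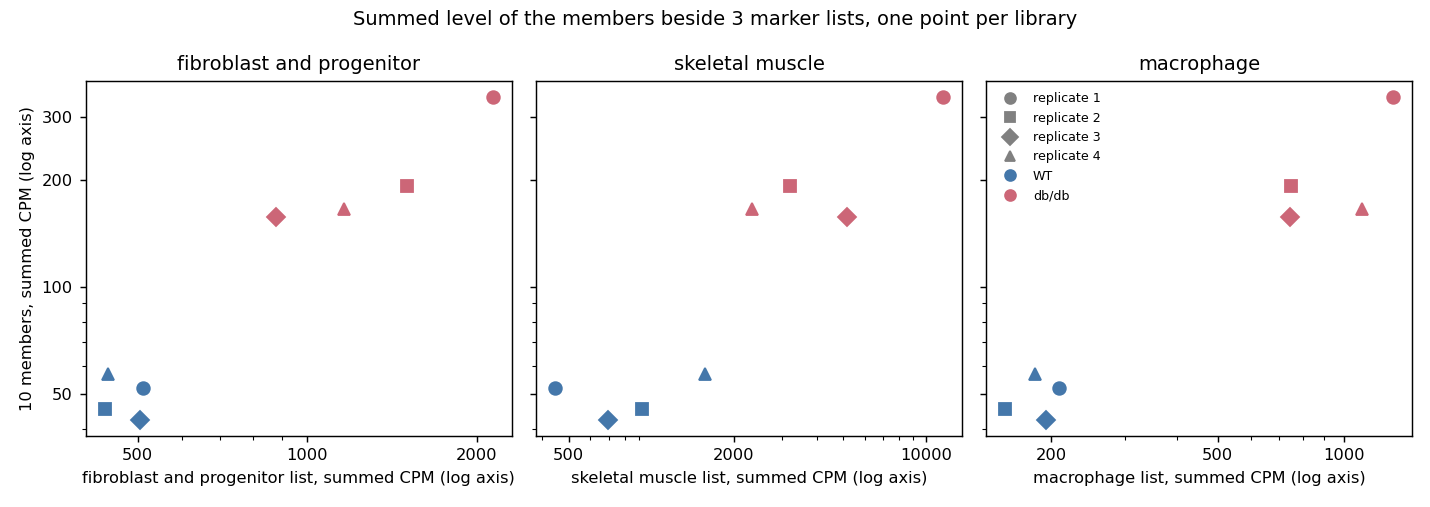
Summed CPM of the 10 members (y axis, log scale) against the summed CPM of the fibroblast and progenitor, skeletal muscle and macrophage marker lists (x axes, log scale), with 1 point per library, WT in blue and db/db in red. WT libraries lie between 42.5 and 56.9 CPM and db/db libraries between 156.9 and 341.1 CPM, and db/db 1 is at the upper right of all 3 panels.

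Relative to the fibroblast list, Mfap5 lay higher in every db/db than in every WT library, and the other members with counts in WT overlapped. Per 1000 CPM of that list, Mfap5 had 24.4, 20.3, 7.46 and 33.7 CPM in WT and 54.5, 44.2, 40.7 and 54.3 CPM in db/db, with means 2.26-fold apart. Fbln2 had 5.53, 2.90, 6.71 and 16.3 CPM in WT and 15.5, 16.5, 18.2 and 12.8 CPM in db/db on the same scale, so its genotypes overlapped through WT 4. Fbn1 overlapped as well, with means 1.58-fold apart. Eln, Fbln5, Efemp1 and Fbln1 overlapped widely, and in each the direction of the difference in means turned when db/db 3 was left out. Efemp2 and Emilin1 had lower means in db/db on this scale, 0.543 and 0.290 of those in WT, and overlapped too. For Emilin1 this was 0.466 without WT 3 and 0.174 without db/db 4. These ratios are descriptions with no test, and the list holds collagen genes that can change within a fibroblast, so they do not count cells.

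**Figure D4:**
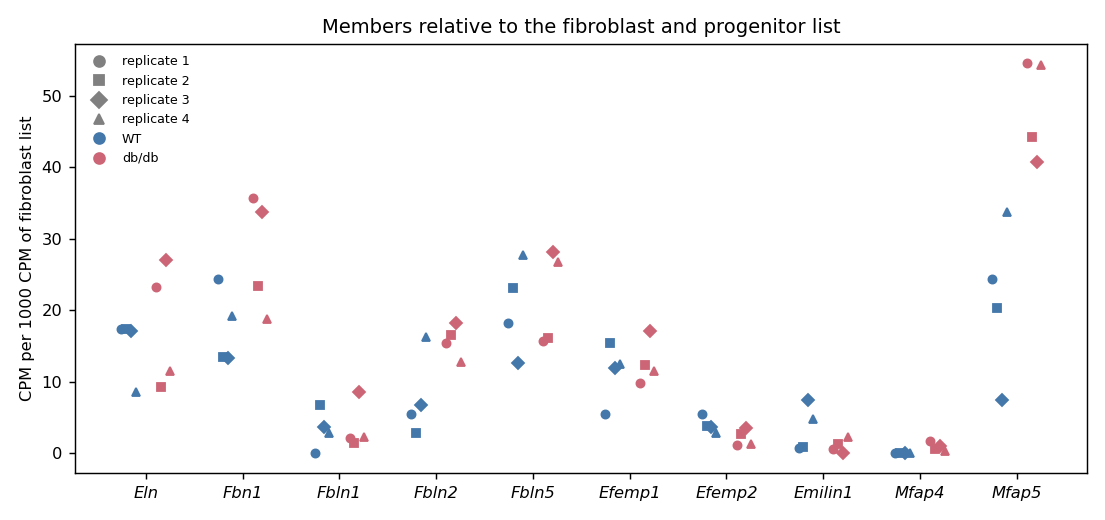
CPM of each member per 1000 CPM of the fibroblast and progenitor list (y axis, linear) in WT (blue) and db/db (red) libraries, with the replicate number as the symbol. Mfap5 lies at 7.46 to 33.7 in WT and 40.7 to 54.5 in db/db, while Eln, Fbln5 and Efemp1 overlap.

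Per 1000 CPM of the skeletal muscle list, no member with counts in both genotypes was separated between them. The db/db means of Eln, Fbln5 and Efemp1 were then 0.443, 0.588 and 0.632 of the WT means, with overlap, and 0.352 to 0.619, 0.417 to 0.770 and 0.544 to 0.748 when 1 library was left out. The other 3 tested members had no settled direction on this scale. Fbn1 went from 0.663 to 1.14 without WT 1, and Fbln2 from 1.17 to 0.957 without WT 2 and 0.962 without db/db 2. Mfap5 went from 1.24 to 1.99 without WT 1 and to 0.961 without db/db 4.

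The skeletal muscle transcripts and the members were both highest in db/db 1, but the other db/db libraries did not share an order. In db/db 2, 3 and 4 the muscle list summed to 3197.0, 5148.9 and 2319.8 CPM and the members to 192.5, 156.9 and 165.2 CPM. With the muscle level of each library as a covariate in edgeR, 2 of the 6 tested members still passed, against 4.79% of the genes tested that rose in that fit. These were Mfap5 (log2 fold change 2.10, edgeR adjusted p 0.00690) and Fbln5 (1.31, edgeR adjusted p 0.0400). Fbln2 (1.63, edgeR adjusted p 0.0758), Fbn1 (1.13, edgeR adjusted p 0.197), Efemp1 (1.13, edgeR adjusted p 0.194) and Eln (0.41, edgeR adjusted p 0.767) kept their direction and did not pass. The muscle level was itself higher in every db/db library than in every WT library, so that fit cannot fully tell muscle level and genotype apart. Why the fold changes were smaller in it was not tested.

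Without db/db 1, all 6 members passed, against 13.8% of all genes tested that rose in that fit. Their log2 fold changes were then 1.20 in Eln, 1.77 in Fbn1, 2.33 in Fbln2, 1.48 in Fbln5, 1.56 in Efemp1 and 2.47 in Mfap5. When the change was tested against a minimum of 1 on the log2 scale, 3 of the 6 passed, Fbn1, Fbln2 and Mfap5, against 4.36% of the genes tested that rose.

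**Figure D5:**
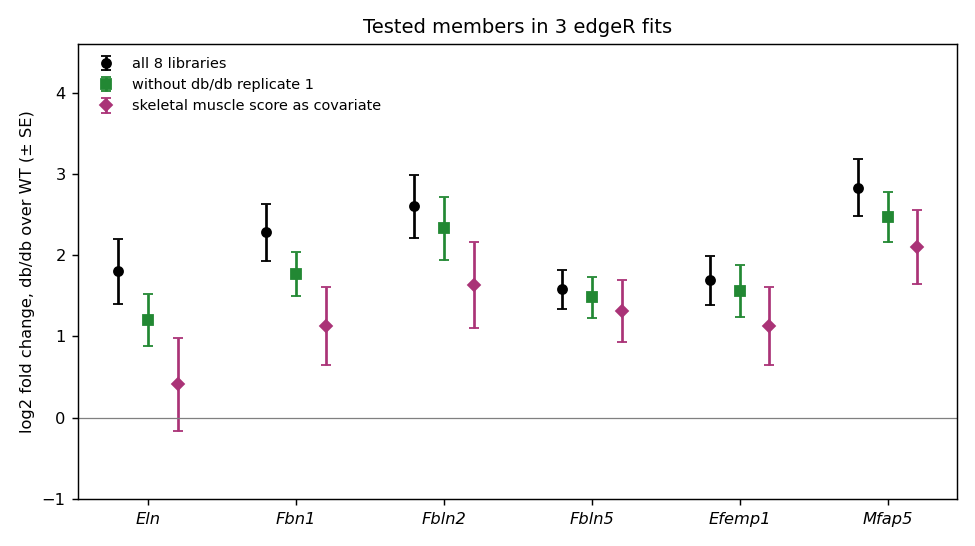
Log2 fold change of db/db over WT ± SE (y axis) of the 6 tested members (x axis) in 3 edgeR fits: all 8 libraries (black circles), without db/db 1 (green squares) and with the skeletal muscle level as a covariate (purple diamonds). All values lie above 0, and Eln falls most with the covariate, from 1.80 to 0.41.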

How the data were processed

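BAT of 4 WT and 4 db/db mice was sequenced single-end as mRNA libraries by a commercial service. The authors deposited raw counts per Ensembl gene. The study's methods name bbduk, STAR and HTSeq-count on mm10, whereas the submitters' processing notes name Trimmomatic and HISAT2, and the use of strand or molecular identifiers is not given in the sources used here. The authors also deposited normalized log2 values, which were not used here. Identifiers were matched to symbols for 30934 of 31053 genes, and the other 119 held at most 0.00758% of the counts of a library.

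Genes with at least 10 counts by filterByExpr and 15 in total (9264) were scaled by TMM and tested by genotype alone in edgeR 4.0.16 (R 4.3.3; quasi-likelihood F test), and p-values were adjusted over all genes tested (Benjamini-Hochberg, threshold 0.05). SEs were derived from the F statistic. CPM are counts over the filtered total times the TMM factor. Pairs and members under the filter were compared as log2 CPM (prior count 2) by exact two-sided permutation tests. DESeq2 1.42.0 and limma 3.58.1 (voom) were alternatives. The scripts were tested on simulated data. Floors and intervals cover counting error only. The series text calls the samples biological replicates.

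The members and lists were chosen with earlier results of these data known. Named are all members, the largest and smallest change that passed in each partner list, and a set of lysyl oxidases, fibrillins, latent TGF-β binding proteins and emilin relatives. Bgn, Fbln7, Loxl2, Loxl3, Loxl4, Adamts10, Adamtsl4, Adamtsl5, Mmp7, Mmp9, Mmp14, Elane, Prtn3, Timp1, Timp3, Cst3, Ctss, Ctsk, Pdgfra, Lum, Trem2, Dpp4, Adgre1, Myh4, Actn3, Acta2 and Myh11 were named after their values were seen. Promoter windows are from RefSeq (GRCm38.p6) and gene positions from GENCODE (mm10).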

Additional observations from a re-analysis of the deposited data

Results flagged for a closer look

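In the WT libraries the log2 ratio of Efemp1 to Efemp2 was 0.00 in WT 1, against 1.36 to 1.63 in the remaining WT libraries, a gap past the 95% critical value of Dixon's test. Both genes had 7 counts in that library, where the others held 13 to 16 counts of Efemp1 and 3 to 5 of Efemp2. Of 32 groups of 4 libraries examined this was the 1 that stood out, and chance gives about 1.60.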

How the results depend on the processing

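With DESeq2, limma-voom, other scalings and each fit without 1 library, 6 members and 16 partner genes were called higher and 0 lower. All genes called numbered 2110 to 2422 without 1 library. With at least 10 counts in every sample, 3 members could be tested and 3 passed, against 15.3% of the genes tested in that fit that rose. With the muscle covariate 2 members, 9 partner genes and 602 genes of all tested passed. Against a minimum change of 1, 3 members, 9 partner genes and 461 genes passed, with Eln at an adjusted p of 0.127, Fbln5 at 0.0545 and Efemp1 at 0.0727 in edgeR. The cause was not tested for the covariate, and fewer genes tested or a stricter threshold stand behind the others. With every gene tested and db/db 1 left out, an alternative chosen after seeing the data, 1 partner gene was lower, against 0.

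Fitting replicate numbers as a block gave the same counts for members and partners: 6 members, 16 partner genes and 2557 genes of all tested passed. The numbers do not pair the samples, since deviations of same-numbered libraries correlated at 0.04, 0.05, −0.08 and −0.01. Other scalings moved the median of all genes by at most 0.03.

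The difference in the Fbln5 to Efemp1 ratio ran from −0.30 to 0.17 when 1 library was left out, and changed sign at 0.17 without WT 1, 0.02 without WT 4 and 0.05 without db/db 2. That of Emilin1 ran from −0.38 to 0.34, with changed sign at 0.27, 0.06 and 0.34 without WT 3, WT 4 and db/db 3. Mfap4 had an exact permutation p of 0.0571 without any 1 of the WT libraries, and 0.125 by sign flips within the block, the smallest that test can give. Depth limits Fbln1, Efemp2, Emilin1 and Mfap4, at 0 to 17 counts per library.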
